A study of Drosophila melanogaster with 4 samples.

Results

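The regions described here are stretches of the X chromosome of Drosophila melanogaster that were enriched for Su(var)3-7 in adult heads, leaving out the 1 Mb at the tip of the arm. They were taken from the authors' combined list of both ChIP replicates as every enriched region on X with a start above 1000000. This gave 1699 of the 9474 regions of the whole list. The same selection gave 1158 of 6780 regions in ChIP replicate 1 and 1187 of 6658 regions in ChIP replicate 2. Both ChIP libraries came from head nuclei of wild-type Oregon-R flies, labelled as mixed adults and kept in population cages. They were precipitated with the antibody Q3448 against Su(var)3-7, and each was called against 1 of 2 input libraries of the same tissue. The sex of the flies and the separation of the replicates (cages or collections) are not given in the labels. Coordinates are those of FlyBase release 5 throughout.

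Su(var)3-7 is a large zinc-finger protein of fly heterochromatin that binds HP1. Its effect on variegation depends on its dose: a gene placed next to heterochromatin is silenced less when the protein is scarce. Most of the protein sits in the condensed chromatin around the centromeres. The X stands apart from the autosomes because males carry a single copy, whose genes are transcribed at a raised level by the MSL dosage compensation complex. In larval salivary glands the giant X of males changes its shape when the dose of Su(var)3-7 is changed.

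The X beyond the tip carried a region about every 18 kb in each replicate. Enriched regions covered 14.6% of its 21.4 Mb in replicate 1 and 15.3% in replicate 2, with a mean of 14.9% ± 0.478 (SD, n = 2). There were 54.1 regions per Mb in replicate 1 and 55.4 in replicate 2. The combined list held 79.3 regions per Mb and covered 22.5%, more than either replicate alone. Depth is unknown, since the lists give regions and no read counts, and the values carry no interval from depth. The last region left out at the tip, from 995036 to 996994, had a score of 0.464, and the first one kept, from 1016351 to 1017869, had 0.434. The score is the authors' own value per region, on a scale that the sources used here do not state.

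Most regions were short, and long domains were rare. Median lengths were 2165 bp (replicate 1) and 2171 bp (replicate 2), and the middle 50% ran from 1848 to 3017 bp and from 1792 to 3053 bp. The shortest region was 1301 bp in both replicates, and the longest was 16779 bp (replicate 1) and 19298 bp (replicate 2). Those that reached 5 kb numbered 91 and 101 and took up 19.8% and 22.6% of the covered length. In the combined list 197 of 1699 regions (11.6%) reached 5 kb, against 11.2% over all sequences of that list. Only 32 (1.88%) reached 10 kb, against 2.82% over all sequences, and all 32 were found in both replicates. Their scores stayed between 0.588 and 1.49.

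Regions present in both replicates were the longer and higher-scoring ones. Of the 1699 combined regions, 865 (50.9%, exact 95% binomial interval 48.5 to 53.3%) overlapped a region of each replicate by at least 1 bp, against 53.2% over all sequences of the list. With the arm ends left out, this share was 52.1% on X, against 58.6% on 2L, 58.5% on 3L, 58.7% on 3R and 55.6% on 2R. These 865 had a median length of 3044 bp and a median score of 0.697, and held 71.1% of the covered length. Another 182 regions overlapped replicate 1 alone and 202 overlapped replicate 2 alone, with median scores of 0.395 and 0.429. The remaining 450 (26.5%) met no region of either replicate and had a median length of 1257 bp. Of these, 54.0% were shorter than the shortest region of the replicate lists. Cut into 4 equal groups by score, 12.5% of the lowest group were found in both replicates, then 106 of 424, then 70.6%, and 95.5% of the highest group. The combined list was made from the replicates, so these shares are not independent of it. All binomial intervals here cover counting error only.

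**Figure D1:**
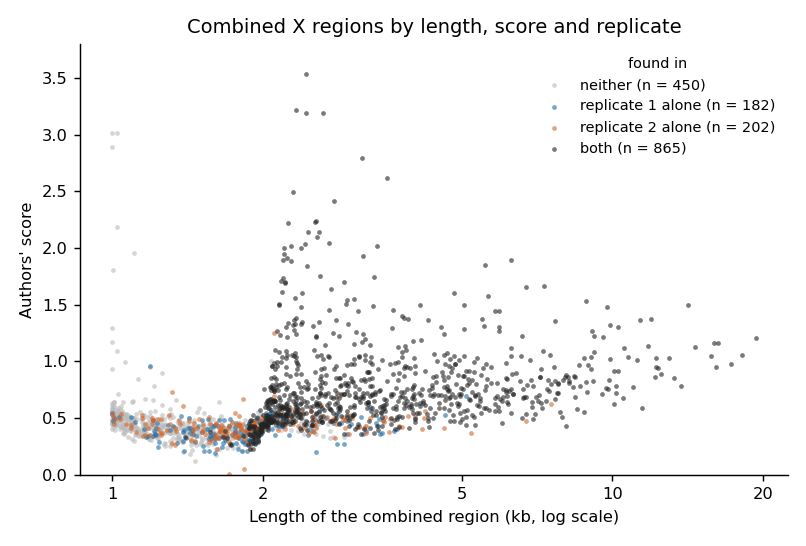
Length of each of the 1699 combined X regions (horizontal, kb, log scale) against the authors' score (vertical), 1 point per region, coloured by the replicates in which it was found. Regions found in both replicates with a score of at least 1 start at 2111 bp, whereas a small group of regions near 1 kb with scores up to 3.01 was found in neither.

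The plot of length against score shows a sharp lower edge. Of the 182 combined regions with a score of at least 1, 171 were found in both replicates, and the shortest of these measured 2111 bp. The shortest region found in both at any score was 1397 bp. The 10 regions of that score found in neither replicate include 9 between 1001 and 1105 bp long. These 9 were picked out after their values were seen. The highest, from 3079103 to 3080122 and from 15310351 to 15311351, each had a score of 3.01. The nearest replicate regions lay at least 8127 bp from the first of these and at least 25895 bp from the other. Over all X regions length and score went together, with Spearman's rho of 0.71 in replicate 1 and 0.68 in replicate 2 (across regions, given without a test). Such short regions with a score of at least 1 were not particular to X: with the arm ends left out, X had 6, 2L had 2, 3L had 3, 3R had 6 and 2R had 3. They made up 3.75% of the regions with a score of at least 1 on X, the highest share. It was 1.65% on 2L, 2.03% on 3L, 3.43% on 3R and 2.44% on 2R.

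The replicates placed the X regions alike. In replicate 1, 957 of 1158 regions (82.6%, interval 80.3 to 84.8%) overlapped a region of replicate 2, against 83.3% over all sequences. In replicate 2, 953 of 1187 (80.3%, interval 77.9 to 82.5%) overlapped one of replicate 1, against 81.2% over all sequences. The sharing on X was thus near that of the whole lists, but not near that of the other arms in replicate 2. With the arm ends left out, 81.8% of replicate 2 regions on X were shared. On 2L it was 87.2%, on 3L 86.7%, on 3R 88.6% and on 2R 84.3%. In replicate 1 the share was 82.7% on X, against 81.1% on 2L, 82.3% on 3L, 79.7% on 3R and 81.1% on 2R. Shared regions had a median score of 0.802 in replicate 1 and 0.733 in replicate 2, against 0.584 and 0.614 for unshared ones. In 771 cases exactly 1 region of each replicate met, and the centres of such pairs lay a median of 144 bp apart, with 83.9% under 500 bp apart. Spearman's rho over these pairs was 0.75 for score and 0.69 for length, as a description over regions that share both libraries. By length, 2.45 Mb of X lay inside regions of both replicates, which was 62.1% of the 3.95 Mb in either.

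Of the 23 combined regions with a score of at least 2, 19 were found in both replicates. Among combined regions met by both replicates, the 10 with the highest scores were 2302 to 3545 bp long, and each met 1 region in each replicate. The first, X from 20630371 to 20632812, had a score of 3.53 in the combined list, 3.59 in replicate 1 and 3.52 in replicate 2. Its neighbours lay 96663 bp before and 29251 bp after it, so it stood alone in a thinly marked stretch. Next came X from 17644755 to 17647088 with 3.22 in the combined list, and X from 17424864 to 17427500 and X from 5417432 to 5419874, with 3.19 each. The fifth of these 10, X from 18131498 to 18134655, had 2.79. In the replicates their scores ran from 2.63 to 3.30. The other five were X from 13456479 to 13460023, from 3236831 to 3239132, from 17713274 to 17716052, from 3463319 to 3465874 and from 3027664 to 3030205. Their combined scores ran from 2.62 down to 2.23. Of these 10 regions, 4 lay between 17424864 and 18134655 and 3 between 3027664 and 3465874. Both stretches were drawn around these regions after their positions were seen. No share of all combined regions was taken for them.

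The 5 longest regions found in both replicates had scores within the highest of the 4 score groups, which starts at 0.717, and below those of the 10 regions just named. X from 6636762 to 6656156 was 19.4 kb long with a combined score of 1.20. It was followed by X from 21878517 to 21896652 (18.1 kb, 1.06), from 8300181 to 8317437 (17.3 kb, 0.977), from 21854358 to 21870628 (16.3 kb, 1.16) and from 1289775 to 1305851 (16.1 kb, 0.949). Each was covered to at least 70.8% by either replicate, in 1 to 3 pieces. Of the 1699 regions, 155 met at least 2 regions of a replicate.

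Spacing was uneven: close groups of regions alternated with long bare stretches. The median gap from the end of a region to the start of the next was 5435 bp (replicate 1) and 5146 bp (replicate 2), whereas the mean gap was 15782 and 15251 bp. Gaps under 1 kb made up 14.0% and 17.7% of all gaps. At the other end, 27 gaps in replicate 1 and 29 in replicate 2 reached 100 kb, and these alone held 21.8% and 23.7% of the bare length. The SD of the gaps was 1.75 times their mean in replicate 1 and 1.84 times in replicate 2. In 100 kb windows the variance of the number of regions was 2.34 times its mean in replicate 1 and 2.60 times in replicate 2. Uneven spacing was not particular to X. With the arm ends left out, the SD of the gaps was 1.76 and 1.83 times their mean on X in replicates 1 and 2. It was 1.75 and 1.84 times on 2L, 1.54 and 1.63 on 3L, 1.54 and 1.55 on 3R, and 1.67 and 1.83 on 2R.

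**Figure D2:**
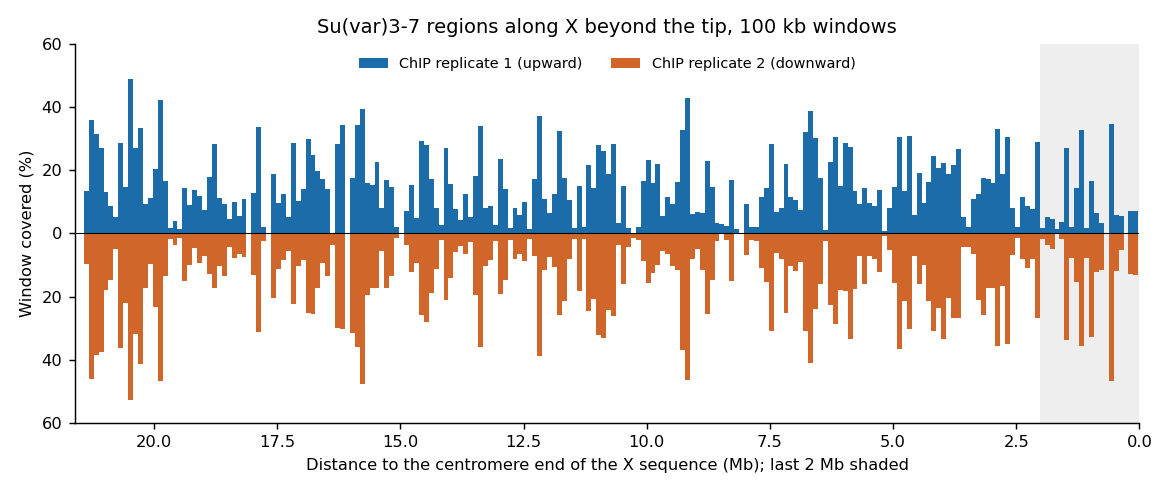
Covered share of each of the 214 whole 100 kb windows of X beyond the tip (vertical, %, replicate 1 upward and replicate 2 downward) against the distance to the centromere end of the X sequence (horizontal, Mb). Peaks and bare windows of both replicates mirror each other along the arm, and the shaded last 2 Mb holds isolated peaks between thinly covered windows.

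The same stretches were dense in both libraries. Over the 214 windows of 100 kb, Spearman's rho of the covered share between the replicates was 0.93, as a description of windows from the same 2 libraries. The median difference between the replicates was 2.15 percentage points. The densest window ran from 1900001 to 2000000, with 48.9% covered in replicate 1 and 52.9% in replicate 2. It held 13 combined regions of 1451 to 11952 bp, of which 11 were found in both replicates. Next came 13200001 to 13300000 with 42.9% and 46.4%, which held 18 combined regions of 1007 to 8191 bp, 12 of them found in both. The third, from 2500001 to 2600000, had 42.3% and 46.7% and held 14 regions, 9 of them found in both. Scores within these 3 windows ran from 0.229 to 1.55, so the highest scores of the arm lay elsewhere.

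Windows at least 30% covered in both replicates numbered 21 of 214 (9.81%), against 7.32% over the main arms, X among them and with their ends included. They held 23.9% of the covered length of replicate 1 and 25.2% of that of replicate 2. They were spread along the arm from 1100001 to 21900000, and 4 pairs of them were neighbours. Joining combined regions less than 5 kb apart gave 672 blocks, of which 14 were at least 50 kb long. The longest block ran from 13190021 to 13283473, with 19 combined regions and 69.8% of its 93.5 kb covered. The second, from 6587482 to 6674384, held the longest region of the arm.

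By 1 Mb windows, the stretch next to the left-out tip led. From 1000001 to 2000000 the covered share was 25.4% ± 3.82 (SD, n = 2), and from 6000001 to 7000000 it was 22.1% ± 1.81. The lowest of the 21 whole windows was 14000001 to 15000000 with 8.69% ± 0.124, followed by 12000001 to 13000000 with 9.25% ± 2.17. The median window had 15.0%.

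The bare stretches also coincided in large part. Windows with no covered base numbered 9 in replicate 1 and 10 in replicate 2. Windows with no covered base in either replicate numbered 7 of 214, against 67 of 1189 (5.63%) over the main arms, X among them and with their ends included. They started at 4300001, 4700001, 6300001, 7400001, 14300001, 21700001 and 22100001. The combined list entered 4 of the 7, with at most 3.77% covered, and left 3 empty. The longest gap of the combined list, from 14260366 to 14473514 (213 kb), held no region of either replicate. It lay inside the longest gap of replicate 1 (256 kb) and the longest of replicate 2 (312 kb). The second, from 7305343 to 7500704 (195 kb), was bare in replicate 2 and entered by replicate 1 by 0.027 kb. The fourth, from 2844521 to 2992377 (148 kb), was bare in both replicates. The third, from 7632290 to 7785205 (153 kb), was not bare in the replicates, which covered 1.32 and 3.48 kb of it. The fifth, from 22086025 to 22225633 (140 kb), lay in the last 2 Mb and was entered by replicate 2 alone, by 0.014 kb. The longest gaps of a single replicate were not always bare in the other. Replicate 2 covered 2.79 kb of the second longest gap of replicate 1 (256 kb). Replicate 1 covered 2.88 kb of the second longest gap of replicate 2 (267 kb). Since depth is unknown, a bare stretch cannot be told apart from sequence too thinly read to be called.

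The last 2 Mb of the sequence, from 20422828 on, lie closest to the centromere. Taken as a whole, this end was marked less than the rest of the arm. It had 34.5 regions per Mb in replicate 1 and 41.0 in replicate 2, against 56.1 and 56.9 over the rest beyond the tip. The ratio was 0.668 ± 0.0745 (SD, n = 2). The covered share was 9.64% and 13.6% in the last 2 Mb, against 15.1% and 15.5% in the rest, a ratio of 0.757 ± 0.169. Both replicates were lower in the last 2 Mb, and by more in replicate 1 than in replicate 2. In replicate 2 the direction of the covered share turned, to a ratio of 1.08 with the upper 50% of scores and to 1.02 for the last 1 Mb alone. With 2 replicates the smallest p of an exact two-sided permutation test by sign flips is 0.5, so none is given.

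In the replicates the median lengths of both parts were close, at 2131 and 2337 bp in the last 2 Mb, against 2167 and 2165 bp in the rest. They were shorter in the last 2 Mb in replicate 1 and longer there in replicate 2. Median scores were 0.840 and 0.751 in the last 2 Mb, against 0.730 and 0.696 in the rest. In the combined list both were lower in the last 2 Mb, with a median length of 1943 bp there, against 2150 bp in the rest, and a median score of 0.501, against 0.506. The regions of the last 2 Mb were thus fewer per Mb in each list. The median score was higher there in both replicates and slightly lower in the combined list. The median length showed no single direction. By the median, gaps were shorter there, at 4455 and 2634 bp in the last 2 Mb, against 5489 and 5215 bp in the rest. Long gaps were nevertheless more frequent for its length. In each replicate 5 gaps reached 100 kb in these 2 Mb, against 22 and 24 in the 19.4 Mb of the rest. The SD of the gaps was 1.51 and 1.89 times their mean there, against 1.76 and 1.83 times in the rest. By this measure spacing there was less uneven in replicate 1 and slightly more uneven in replicate 2. The 3 densest of the 19 whole 100 kb windows there, chosen after the values were seen, held 49.0% of the covered length of replicate 1 and 42.9% of that of replicate 2. No such share was taken for the rest of X. The densest of the 3, from 21800001 to 21900000, was covered at 34.6% and 46.7% and contained the regions of 18.1 and 16.3 kb. The next, from 21200001 to 21300000, had 32.6% and 35.7%, and 20900001 to 21000000 had 27.2% and 33.9%. In steps of 500 kb toward the centromere, the covered share was 5.15% ± 0.451, 15.8% ± 3.27, 16.2% ± 5.70 and 9.20% ± 2.54 (SD, n = 2 each). It therefore did not climb steadily toward the end of the sequence. The means of the middle 2 steps lay near the 15.3% of the rest. In these steps replicate 1 was below its share in the rest and replicate 2 above its own.

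Among named regions of the last 2 Mb, the highest-scoring site of the whole arm came first, at 20630371. It was followed by 21045010 to 21047193 with a score of 1.61 and 20662064 to 20664459 with 1.60. The longest were the 2 regions of 18.1 and 16.3 kb named above and 22405179 to 22417386 (12.2 kb, score 1.03), close to the end of the sequence. Very long regions were more common here: those that reached 10 kb took up 5.55% and 13.6% of the region length in the last 2 Mb, against 2.81% and 4.45% in the rest. They numbered 1 and 3 in the last 2 Mb, so these shares rest on very few regions. The last member of all, 22420834 to 22422286, had a score of 0.384 and was found in neither replicate.

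The replicates parted more in the last 2 Mb. There 45 of 126 combined regions (35.7%, interval 27.4 to 44.7%) were found in both replicates, against 820 of 1573 (52.1%, interval 49.6 to 54.6%) in the rest. Replicate 2 alone accounted for 28 of the 126 (22.2%), and replicate 1 alone for 12. Of the replicate 2 regions there, 49 of 82 (59.8%, interval 48.3 to 70.4%) met a region of replicate 1, against 81.8% in the rest. In the other direction the share was 81.2% in the last 2 Mb, against 82.7% in the rest. Replicate 2 covered more than replicate 1 in 13 of the 19 windows, and less in 4. In the rest of X it covered more in 99 of 195 windows and less in 91.

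**Figure D3:**
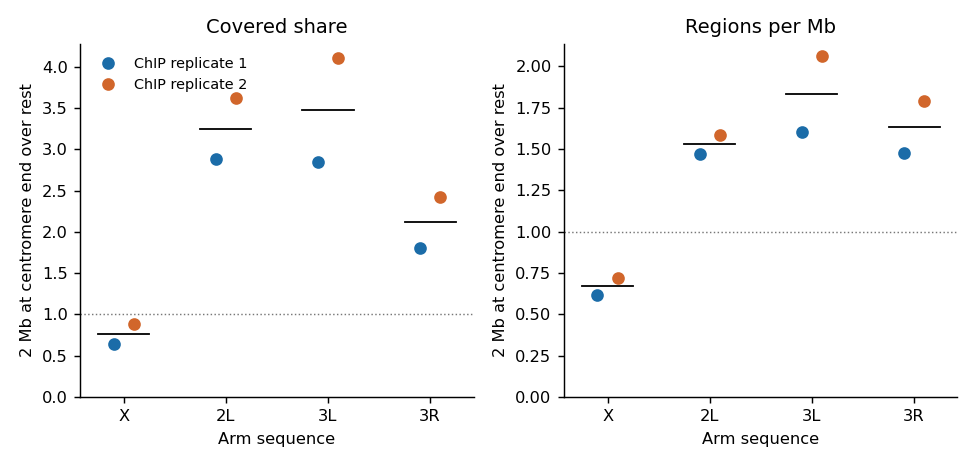
Covered share (left) and regions per Mb (right) in the 2 Mb at the centromere end divided by the value in the rest of the arm without the 1 Mb at the telomere end, for X, 2L, 3L and 3R. Points are the 2 ChIP replicates, bars their mean and the dotted line a ratio of 1; X lies below 1 in both replicates and the other arms above it.

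The arms 2L, 3L and 3R went the other way at this end. The same ratio of covered share was 0.638 and 0.877 on X in replicates 1 and 2. It was 2.88 and 3.62 on 2L, 2.85 and 4.10 on 3L, and 1.81 and 2.42 on 3R. On 2R, added after the values were seen, it was 4.41 and 5.14. The direction was the same in both replicates on each of these arms. The sources used here do not say how much pericentric heterochromatin each arm sequence takes in, so the 2 Mb windows need not hold comparable chromatin.

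Away from the ends, X was marked more densely than 2L, 3L and 3R. With 1 Mb at the telomere end and 2 Mb at the centromere end left out of each arm, X had 56.5 ± 0.582 regions per Mb, against 42.5 ± 2.78 on the 3 arms together (SD, n = 2), a ratio of 1.33 ± 0.101. The covered share was 15.3% ± 0.243 on X, against 10.7% ± 0.659, a ratio of 1.44 ± 0.112. X exceeded each of the 3 arms in both replicates. The difference from 2R, an arm added after the values were seen, was small, with ratios of 1.03 ± 0.0439 for regions per Mb and 1.09 ± 0.0489 for covered share. The density of X was therefore not particular to it among the main arms. Of the 100 kb windows, 3.61% on X had no covered base in each replicate, against 8.13% and 10.2% on the 3 arms in replicates 1 and 2.

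**Figure D4:**
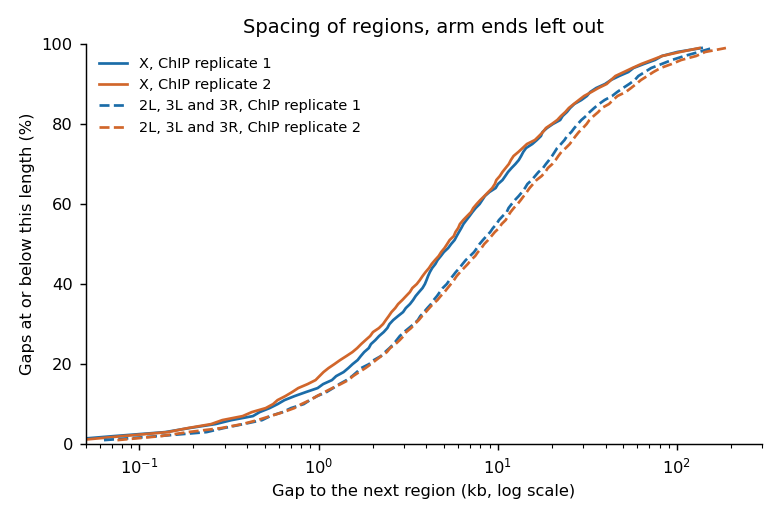
Cumulative share of gaps between neighbouring regions (vertical, %) up to a given length (horizontal, kb, log scale), for X (solid) and for 2L, 3L and 3R together (dashed) in each ChIP replicate, with the arm ends left out. The curves of X lie to the left over most of the range, with median gaps of 5489 and 5215 bp against 7910 and 8397 bp.

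Regions on X stood closer together, and more of them were long. The median gap was 5352 ± 193 bp on X, against 8153 ± 344 bp on the 3 arms together (SD, n = 2), and 6752 ± 331 bp on 2R. Gaps of at least 100 kb came at 1.18 ± 0.0728 per Mb on X, against 1.76 ± 0.106 on the 3 arms and 1.21 ± 0.234 on 2R, so X was not lower than 2R beyond the spread between the replicates. The median length was the same to within 1% in each replicate, at 2166 ± 1.41 bp on X, against 2163 ± 23.3 bp. The upper end of the lengths was not: the longest 10% began at 4545 ± 15.6 bp on X, against 3785 ± 57.4 bp on the 3 arms and 4042 ± 157 bp on 2R. Regions of at least 5 kb came at 4.22 and 4.48 per Mb on X in replicates 1 and 2, against 1.52 and 2.00 on the 3 arms, a ratio of 2.51 ± 0.382. On 2R they came at 2.59 and 2.92 per Mb.

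The scores of X regions were higher than those of 2L, 3L and 3R at the low end and in the middle, and not at the high end. The median score was 0.713 ± 0.0242 on X, against 0.597 ± 0.0283 on the 3 arms (SD, n = 2) and 0.588 ± 0.0217 on 2R. The lowest 5% of scores ended at 0.434 ± 0.0160 on X, against 0.307 ± 0.0145 on the 3 arms. The highest 5% began at 1.57 ± 0.0592 on X, against 1.64 ± 0.0727 on the 3 arms, a ratio within each replicate of 0.958 ± 0.00638, and against 1.51 ± 0.0592 on 2R, where it was lower than on X in both replicates.

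**Figure D5:**
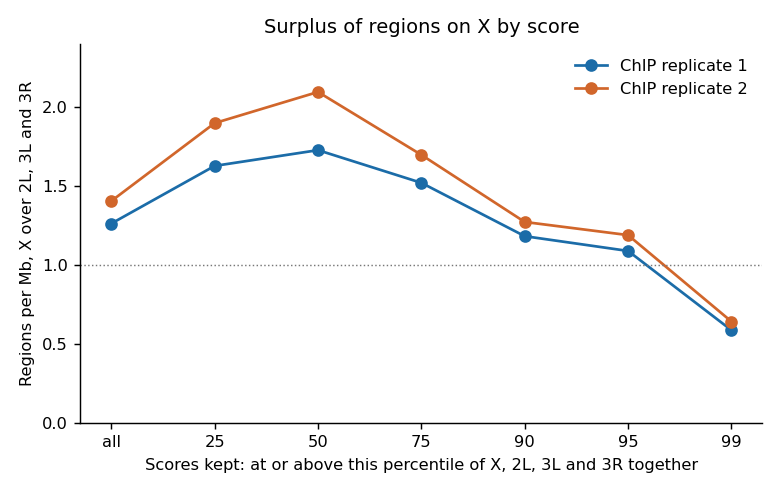
Regions per Mb on X divided by that on 2L, 3L and 3R together (vertical), when only regions at or above a given percentile of the scores of these 4 arms are kept (horizontal), for each ChIP replicate, with the arm ends left out. Among the cuts shown, the ratio is highest with the upper 50% of scores and lies below 1 with the upper 1%.

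The surplus of regions on X depended on the score. With regions at or above the 50th percentile of the 4 arms together, X had 34.9 and 37.1 regions per Mb in replicates 1 and 2, against 20.2 and 17.7 on 2L, 3L and 3R, a ratio of 1.91 ± 0.261 (SD, n = 2). With those at or above the 75th percentile the ratio was 1.61 ± 0.125, and at the 90th percentile 1.23 ± 0.0637. At the 95th it was 1.14 ± 0.0710, from 49 X regions in each replicate. At the 99th percentile X held 6 regions in each replicate, against 35 and 32 on the 3 arms, a ratio of 0.614 ± 0.0389. The ratios of both replicates moved the same way at each step. Percentiles were taken within each list. Signal outside the called regions was not analysed here. The sex of the flies and the depth are not given. Whether X copy number or depth bears on these scores and densities, set against 2L, 3L and 3R, was not tested.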

How the data were processed

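Su(var)3-7 was profiled by ChIP-seq in head nuclei of adult flies, in 2 ChIP and 2 input libraries. The authors deposited lists of enriched regions with a score each, 1 list per ChIP replicate and 1 combined list; the sources used here do not state its scale. Bowtie 0.12.7 is named in the submitters' processing notes, and, per the file headers, coordinates follow FlyBase release 5. The sources used here name neither the program that called regions, nor its threshold, nor how replicates were joined. Regions on X with a start above 1000000 and not marked as depleted were kept. Over the 3 lists, 4 regions were trimmed to their sequence. Covered share is the percentage of bases inside regions, gaps run from the end of a region to the next start, and windows of 100 kb were counted from 1000001. The compared arms were 2L, 3L and 3R. Named regions follow a rule: the 10 highest-scoring and 5 longest combined regions found in both replicates, the first and last member, the 3 densest windows, the 5 longest gaps, and the 3 highest-scoring and 3 longest in the last 2 Mb. Members, arms and rules were chosen with earlier results of these data known. No test was run: the exact test by sign flips has a smallest p of 0.5 with 2 replicates, and regions are not replicates. Where replicates do not come from separate collections, their SD is technical. Intervals of shares are exact Clopper-Pearson 95% intervals. The interval functions were tested on simulated regions. Other settings (score, merging, borders, arms, overlap, each replicate left out) are given in the closing section. Gene names and sequences are not given, since coordinates of release 5 were not mixed with a gene table of release 6. Python 3.11.15, NumPy 2.4.6 and SciPy 1.17.1 were used.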

Additional observations from a re-analysis of the deposited data

Results flagged for a closer look

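The 2 Mb at the centromere end, set against the rest of the same arm, had a lower covered share on X in both replicates and a higher one on 2L, 3L and 3R in both. The mean ratio on X was below that of 2L by 2.49 (a difference of -2.49), with differences of -2.72 from 3L and -1.36 from 3R. These differences were not tested.

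A region marked as depleted in the combined list, a kind of call no comparison used, lies on X from 7570347 to 7571942 with a score of -0.0427. It overlaps an enriched region of replicate 1, from 7570426 to 7571935, whose score of 0.195 is the lowest of that replicate on X beyond the tip. Replicate 2 has no region there.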

How the results depend on the processing

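No paired analysis was possible because ChIP was the sole group with values analysed here, so the shared numbers join no pairs. Of 50 values under other settings, 28 stayed within their limit (the SD of the replicates, the binomial interval, 1.5 times for numbers or 0.05 for rank correlations) and 22 went past it. The other 20 leave out a replicate and stay within the SD by construction. The 1 change of direction was the ratio of median length, last 2 Mb over the rest, which was 0.983 to 1.08 with a replicate left out, around 1.03. With the upper 50% of X scores the number of regions was 586.5, the covered share 9.53%, the median length 2768 bp, the median gap 13497 bp and the variance to mean 1.66. This setting lowers the number and the covered share by construction, and its gaps span the dropped regions. These values are nevertheless counted among the 22. That setting gave ratios of 0.797 for regions per Mb in the last 2 Mb, and 2.03 (covered share) and 1.84 (regions per Mb) for X over 2L, 3L and 3R. Merging neighbours under 1 kb apart gave a median length of 2292 bp, a median gap of 7117 bp and a variance to mean of 1.84. Starting at 2 Mb gave a covered share of 14.4%, and windows of 200 kb a variance to mean of 3.10. The last 3 Mb had a ratio of regions per Mb of 0.806. Whole arms gave 1.21 and 1.22 for X over the 3 arms. Chosen after seeing the data, 2R alone gave 1.09 and 1.03, and the upper 5% of scores 1.14. The share found in both replicates was 46.1% when each replicate had to cover 50% of a region, and 61.5% among members as long as the shortest replicate region. A reciprocal overlap of 50% gave a rank correlation of scores of 0.78. In replicate 2 alone, the last 2 Mb exceeded the rest in covered share with the upper 50% of scores (1.08) and in the last 1 Mb (1.02), so the lower covered share there does not hold under each setting. The cause of these moves was not tested. Depth is unknown.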

Other observations

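The combined list held 1.02 Mb of X sequence that lay in no region of either replicate, against 3.80 Mb that lay in at least 1. Of its 1699 X regions, 16 bore the same score of 0.43, more than shared any other score. Sequence of the named regions was not analysed here.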
